A study of Mus musculus with 7 samples.

Results

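The m6A writer complex was taken as 9 genes, which are Mettl3, Mettl14, Mettl16, Wtap, Virma, Zc3h13, Rbm15, Rbm15b and Cbll1. They were found by gene symbol in the deposited m6A peak tables, older symbols included, among 6155 annotated genes with a peak in either table. Of the 9 genes, 3 were listed in muscle, 7 were listed in C2C12 myoblasts, and Mettl3 and Mettl14 were listed in neither. Every member listed in muscle was also listed in C2C12. The muscle libraries came from C57BL/6 mice at day 2 after cardiotoxin (CTX) was injected into the tibialis anterior muscle, and all mice had received tamoxifen. METTL3 cKO mice were Pax7CreERT2; METTL3 flox/flox and control (CTL) mice were Pax7CreERT2; METTL3 wt/wt, and each genotype gave 1 IP library and 1 input library. Since Cre was driven from Pax7, METTL3 was removed from muscle stem cells and their progeny, and every other cell type of the injured muscle kept the gene. The labels give the cell type as muscle stem cell and the source as muscle. The age of the mice and the number of animals pooled into a library are not given in the sources used here. C2C12 is a mouse myoblast line that grows as dividing progenitors and can be differentiated into myotubes, and it gave 2 IP libraries and 1 input library. The labels mark both C2C12 IP libraries as knockout and the C2C12 input as normal. The gene is not given for them, and the labels call the cells mouse myoblast cells.

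N6-methyladenosine (m6A) is written onto nascent mRNA in the nucleus by a multi-subunit complex. METTL3 holds the catalytic site, and METTL14 is its partner and helps to bind the RNA. WTAP ties this heterodimer to a larger set of adaptors, among which VIRMA is the scaffold, ZC3H13 keeps the assembly in the nucleus, RBM15 and RBM15B bind RNA and recruit the complex, and CBLL1 (HAKAI) is a RING finger protein. METTL16 works apart from this complex as the enzyme of the U6 small nuclear RNA and of Mat2a mRNA. In myoblasts and regenerating muscle, the writers are studied because m6A acts on the stability and translation of transcripts that steer proliferation and differentiation. In MeRIP-Seq, an antibody against m6A pulls down pieces of mRNA, and a peak is a stretch with more reads in the IP than in the input. The mRNAs of the writers can themselves carry such peaks, and these were the subject here.

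A peak in the muscle table had passed the differential test that the authors ran between the genotypes, since 0 of 5412 peaks had an FDR above 0.05 at the rounding of the file. Absence from this table therefore does not mean that a transcript had no peak, because peaks that did not pass that test were left out. The values of that genotype comparison are not given here, and each muscle peak has a single fold enrichment over both genotypes, so no spread between libraries can be stated. Depth is unknown for all libraries. The C2C12 list holds 5433 peaks with position and annotation only. Neither table measures expression, so the loss of Mettl3 RNA in the cKO was not checked.

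Among the members, 3 of 9 genes had a muscle peak, where 16.9% of the 21900 protein-coding genes of the RefSeq annotation had one. In C2C12, 7 of 9 were listed, where 17.6% of protein-coding genes were. Both tables held 3 of 9, where they held 7.32% of protein-coding genes. These were 3 of the 3 members listed in muscle, where 43.2% of the 3705 muscle-listed protein-coding genes were also in C2C12. These background shares count every protein-coding gene, expressed or not. The writer genes are broadly expressed, and the part of expression in their counts was not tested.

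**Figure D1:**
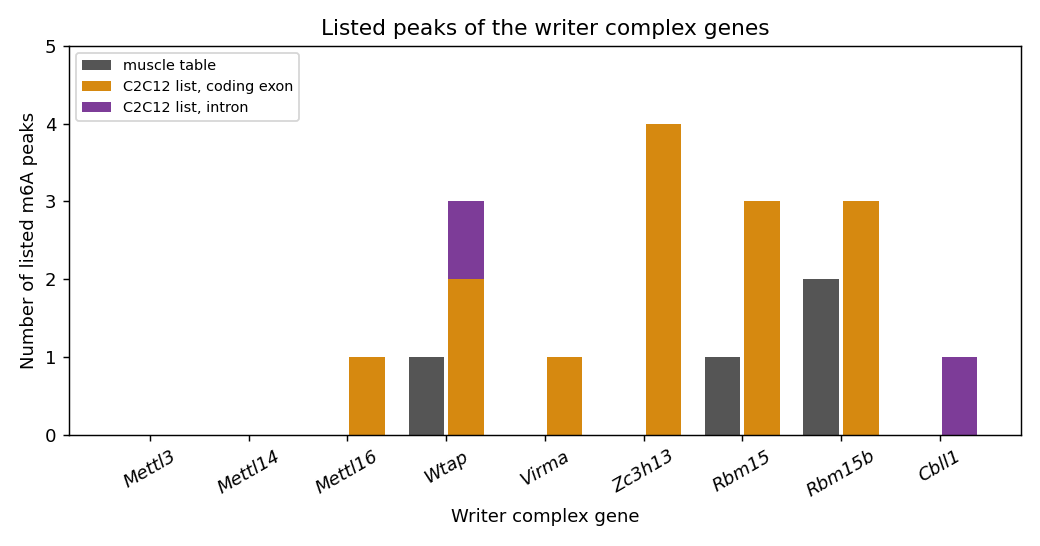
Number of listed m6A peaks (vertical axis) for each of the 9 writer complex genes (horizontal axis), in the muscle table (grey) and in the C2C12 list (orange for coding exons, purple for introns). Mettl3 and Mettl14 have no bar, Zc3h13 has 4 peaks in C2C12 and 0 in muscle, and the muscle peaks belong to Wtap, Rbm15 and Rbm15b.

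The catalytic pair had no listed peak. Mettl3, on chromosome 14 from 52294841 to 52308741 of GRCm38, had 0 peaks in muscle and 0 in C2C12. Mettl14, on chromosome 3 from 123368295 to 123385990, also had 0 and 0. The separate enzyme Mettl16, on chromosome 11, had 0 peaks in muscle and 1 in C2C12. This C2C12 peak was 281 bp long and annotated to a coding exon, and its midpoint lay 46603 bp from the transcription start site (TSS) in a gene that spans 56041 bp. With 1 peak, Mettl16 was at the commonest number in the list, since 1023 of the 3970 listed symbols had more.

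Rbm15 and Rbm15b, the paralogous RNA-binding adaptors, carried the strongest peaks of the complex in muscle. Rbm15 had 1 muscle peak on the minus strand of chromosome 3 from 107330201 to 107333673, which is 3473 bp in a single block. Its fold enrichment was 1040, against a median of 12.9 over all 5412 muscle peaks. This was rank 21, so that 0.407% of the peaks were at or above it. The authors' table puts the peak in the class exon, which holds 806 peaks (14.9%), 540 of them in protein-coding genes, and in this class it had rank 8. The gene itself spans 107305511 to 107334460, and the peak lies inside this span at its 5′ end.

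Rbm15b had 2 muscle peaks on the minus strand of chromosome 9, both in the class CDS. The longer one ran from 106884113 to 106887219 over 3107 bp and had a fold enrichment of 702, which was rank 61 of all peaks and rank 29 of 1726 CDS peaks. The shorter one, from 106884751 to 106885619, had a fold enrichment of 151 and rank 600. It lies wholly within the longer peak and is split into blocks of 301 and 381 bp with 187 bp between them. These peaks overlap on the same transcript and are not independent of each other. At its 5′ end, the longer peak ran 144 bp past the annotated end of the gene at 106887075.

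Wtap, the adaptor that joins METTL3 and METTL14 to the other subunits, had the weakest muscle peak of the members. It lies on the minus strand of chromosome 17 from 12974562 to 12975041, is 480 bp long, and is annotated to the 3′UTR. Its fold enrichment was 57.2, at rank 1233 of all peaks and rank 394 of 2598 peaks of the 3′UTR class, whose median was 9.94. The scaffold Virma, the nuclear anchor Zc3h13 and the RING finger gene Cbll1 had 0 muscle peaks each.

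All 4 member peaks were thus above the median fold enrichment of the table. Their median was 426, and the median over the strongest peak of each of the 3 genes was 702, against 19.4 for the strongest peak of every gene in the table. The p-value of the peak was listed as 0 for all 4, as it was for 929 of the 5412 peaks (17.2%). From the Wtap peak to the Rbm15 peak, the fold enrichment spread over the range from 57.2 to 1040. With a single value per peak, the order Rbm15, Rbm15b, Wtap has no replicate check.

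**Figure D2:**
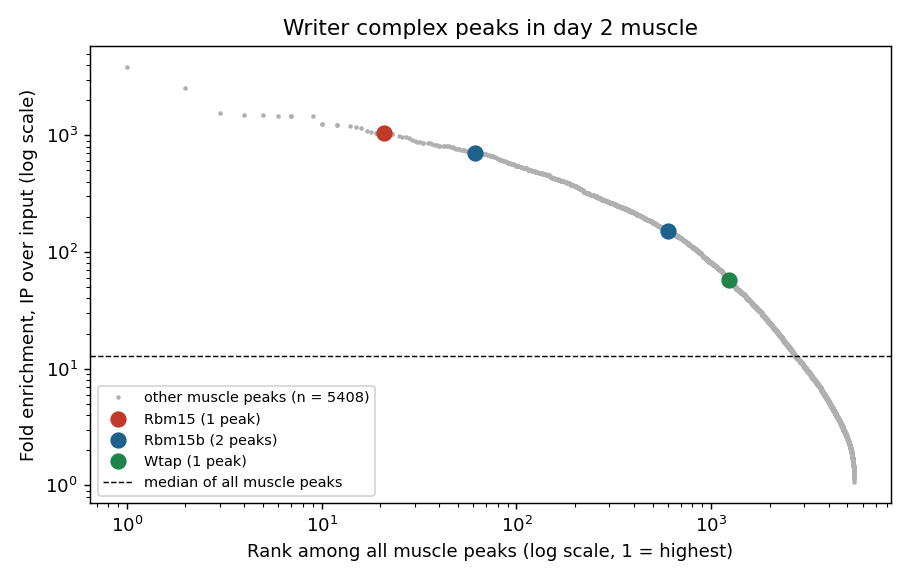
Fold enrichment of IP over input (vertical axis, log scale) against rank (horizontal axis, log scale) for all muscle peaks in grey, with the peaks of Rbm15 (red), Rbm15b (blue) and Wtap (green) as large points. The dashed line is the median of all peaks, 12.9, and the 4 member peaks lie above it at 1040, 702, 151 and 57.2.

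Length went with these values. The median muscle peak was 360 bp long, and over all 5412 peaks the Spearman correlation of length with fold enrichment was 0.765, where the points share the same libraries. Only 38 peaks in the table reached 3000 bp, and Rbm15 (rank 23 by length) and the longer peak of Rbm15b (rank 33) were among them. Those 38 peaks had a median fold enrichment of 303 with quartiles of 185 and 507. At or above the value of Rbm15 there was 1 of them, which is the Rbm15 peak itself. At or above the value of Rbm15b there were 7, which include the Rbm15b and Rbm15 peaks themselves. Both peaks were therefore also high among the peaks of at least 3000 bp, whose lengths reach 10796 bp. The part of length in the fold enrichment was not tested.

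GGAC, the core of the m6A consensus, is listed by position for each muscle peak. All muscle peaks of the 3 members held at least 1 site, where 70.6% of all muscle peaks had one. That share is over peaks with a median length of 360 bp and was not matched for length. The Rbm15 peak held 26 sites, which was rank 12 of all peaks, and the longer Rbm15b peak held 25, at rank 13. The shorter Rbm15b peak held 7, and all 7 were among the 25 of the longer one. The Wtap peak held 3. The largest number in any peak was 59, and the median was 1.

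Per length, the member peaks were denser in GGAC than the table as a whole. The density was 7.49 sites per kb for Rbm15, 8.05 and 10.3 for the longer and the shorter Rbm15b peak, and 6.25 for Wtap. Over all muscle peaks it was 4.63 per kb, and the median of the 38 peaks of at least 3000 bp was 5.35. A GGAC sequence is a possible site and does not show that its A was methylated.

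**Figure D3:**
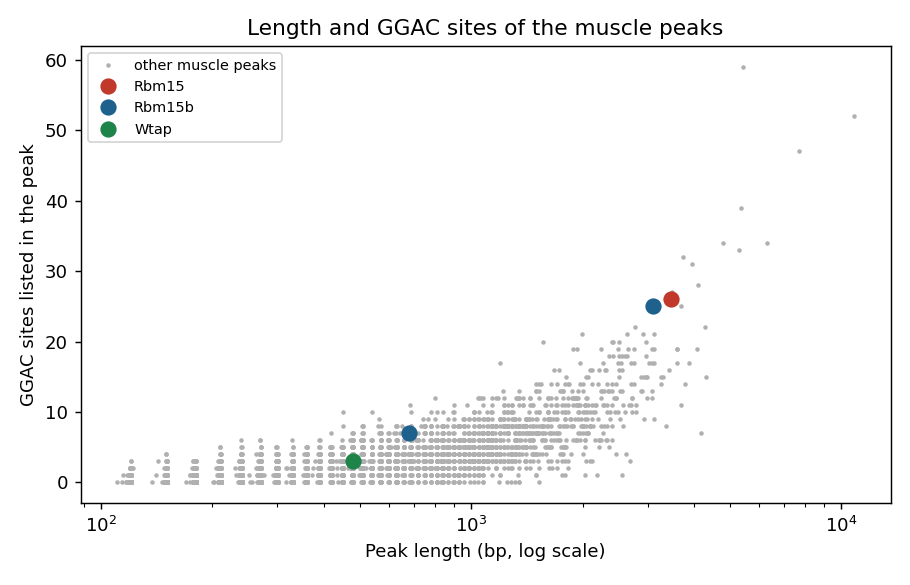
Number of GGAC sites listed in a peak (vertical axis) against the length of the peak in bp (horizontal axis, log scale) for all muscle peaks in grey, with Rbm15 (red), Rbm15b (blue) and Wtap (green). Rbm15 with 26 sites in 3473 bp and Rbm15b with 25 sites in 3107 bp are rank 12 and rank 13 of all peaks by the number of sites.

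The sites were read against the sequences at hand to find which base a listed position marks. Inside the RefSeq promoter windows of GRCm38, which run from 250 bp before to 50 bp after a TSS, 38 of 38 listed sites on the minus strand read GGAC with the A at the listed position. On the plus strand 33 of 33 did so with the A at the base after it. All members with a muscle peak are on the minus strand, so their listed positions are those of the A. In Rbm15 the A positions ran from 107330565 to 107333621 with a median gap of 117 bp, and the closest were 5 bp apart. In the longer Rbm15b peak they ran from 106884314 to 106886692 with a median gap of 76 bp and again a smallest gap of 5 bp. The 3 sites of Wtap lay between 12974717 and 12975017, with gaps of 60 and 240 bp.

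The peaks of Rbm15 and Rbm15b both ran across the annotated TSS, so the sequences upstream of it that they covered are shown. They are from RefSeq, build GRCm38.p6, 5′ to 3′ on the minus strand, and GTCC, which is GGAC read on the other strand, is in capitals. For Rbm15 it is the whole upstream part of the window, chr3:107333290-107333539, and for Rbm15b the upstream bases under the peak, chr9:106887076-106887219.
Rbm15: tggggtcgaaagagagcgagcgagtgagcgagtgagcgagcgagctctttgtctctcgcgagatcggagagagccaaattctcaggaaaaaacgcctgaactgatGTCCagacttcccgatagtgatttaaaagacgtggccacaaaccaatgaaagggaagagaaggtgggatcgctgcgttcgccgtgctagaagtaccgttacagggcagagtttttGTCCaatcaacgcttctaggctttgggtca
Rbm15b: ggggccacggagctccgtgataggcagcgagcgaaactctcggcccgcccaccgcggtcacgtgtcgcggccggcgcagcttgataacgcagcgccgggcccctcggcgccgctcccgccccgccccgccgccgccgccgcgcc
Neither sequence holds GGAC on the strand of the gene, and the table likewise lists no site there. Rbm15 holds 2 GTCC and Rbm15b 0. Of the 32817 promoter windows in RefSeq, 58.0% hold GGAC in the 250 bp before the TSS on the strand of the gene, 59.5% hold GTCC, and 82.3% hold either. In the 144 bp before the TSS, the length shown for Rbm15b, the shares were 39.9% for GGAC and 41.3% for GTCC. The G and C content was 51.6% for Rbm15, with a median of 52.4% over 250 bp of all windows. It was 79.9% for Rbm15b, with a median of 54.2% over 144 bp. The Rbm15 peak reached 384 bp past the TSS, with 1 listed site, at position -332 relative to the TSS, beyond the sequence shown. RefSeq gives Rbm15 other transcripts that start farther upstream, and for Rbm15b the covered bases lie outside the annotated gene.

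In C2C12, the 7 listed members had 16 peaks, 2.29 per gene against 1.37 over the whole list. Zc3h13 had 4, Wtap, Rbm15 and Rbm15b had 3 each, and Mettl16, Virma and Cbll1 had 1 each. So 4 of the 7 had at least 3 peaks, where 7.19% of the listed protein-coding genes did. The list gives no enrichment or count, so size can be judged only from how many peaks a gene has and how many bases they cover. In covered length, Rbm15b with 1683 bp was rank 62 of the 3970 symbols, Rbm15 with 1253 bp rank 157, Wtap with 1057 bp rank 248 and Zc3h13 with 970 bp rank 318. Mettl16 with 281 bp (rank 2490), Cbll1 with 240 bp (rank 2994) and Virma with 218 bp (rank 3365) came far below. The members thus fell into a group of 4 with several peaks and a group of 3 with a single peak. These single peaks, of 218 to 281 bp, were within the 200 to 311 bp of the Zc3h13 peaks.

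The C2C12 peaks of the members were mostly annotated to coding exons. Of the 16, 14 (87.5%) were in coding exons and 2 in introns, and 0 were in the 3′UTR. Over the whole list, 52.6% of peaks were in coding exons, 25.9% in the 3′UTR and 12.4% in introns. The intron peaks were the only peak of Cbll1, 12061 bp from the TSS, and 1 of the 3 of Wtap. Peaks of 1 gene share a transcript, so the 16 peaks are not independent. Their median length of 296 bp was close to the 286 bp of the list.

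Zc3h13, a long zinc finger protein, had the most C2C12 peaks of the members. All 4 were in coding exons, from 200 to 311 bp long, with midpoints 38954, 43298, 43605 and 47567 bp from the TSS of a gene that spans 60128 bp. Only 80 of the 3970 symbols had 4 or more peaks. It had 0 muscle peaks, the largest gap in number between the tables among the members. Virma was listed in C2C12 under its older symbol 1110037F02Rik, with 1 coding exon peak of 218 bp at 27794 bp from the TSS. A search by current symbol alone would have missed it.

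Rbm15 and Rbm15b had a like arrangement in C2C12 by distance from the TSS, with 3 coding exon peaks each. Relative to the gene span they differed, with midpoints at 4.27 to 9.72% of it for Rbm15 and 16.5 to 41.6% for Rbm15b. For Rbm15 the midpoints lay 1235, 1841 and 2815 bp from the TSS, and the longest peak, in the middle, was 716 bp. For Rbm15b they lay 1016, 1786 and 2560 bp from the TSS, and the longest, again in the middle, was 921 bp. These longest peaks were rank 258 and rank 118 by length among the 5433 peaks.

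The tables could not be compared by position, since 0 of the 16 C2C12 member peaks, and 9.3% of all matched C2C12 peaks, lay inside the GRCm38 span of their gene. For the muscle peaks this was 95.6%. The submitters' processing notes name mm10 for all samples, which is the same assembly as GRCm38, so the C2C12 positions are on a build other than the one named. Peaks were therefore placed by distance from the TSS. This needs the stretch from TSS to peak to be equally long in both builds, which was checked with the 5 nearest listed genes on the gene-body side of each member. Where a member or a neighbour had several start sites, those giving the smallest difference were taken, so agreement is partly built in. For Rbm15 all 5 were shifted between the builds by the same amount as Rbm15, within 2 bp. For Wtap, which has several RefSeq start sites, 4 of 5 were with the one at 12992259 and 0 of 5 with the ones at 12992539 and 12992543, so the first of these was used. For Rbm15b the 5 neighbours differed from it by 73 to 74.5 bp, all in the same direction, which places its TSS in the C2C12 list 74 bp downstream of the RefSeq one.

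By distance from the TSS, all 3 C2C12 peaks of Rbm15 lay wholly inside its muscle peak, which spans from 384 bp upstream to 3088 bp downstream. They covered 1253 bp, or 36.1% of it, and 14 of its 26 GGAC sites (53.8%) lay at the distances they cover. The longest C2C12 peak alone held 11 of these. All 3 C2C12 peaks of Rbm15b likewise lay wholly inside the longer muscle peak, and 18 of its 25 sites (72.0%) lay at their distances, where they covered 54.2% of the span. The shorter muscle peak of Rbm15b overlapped with the middle C2C12 peak, over 791 bp and all 7 of its sites. With the TSS of Rbm15b moved by 74 bp, the number of peaks inside and the site counts were unchanged at 3, 18 and 7, and the last overlap became 865 bp.

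Wtap differed in annotation between the tables. Its muscle peak, 17218 to 17697 bp from the TSS, was annotated to the 3′UTR. The C2C12 peak annotated to an intron, 240 bp long with its midpoint at 17471 bp, lay wholly inside it, and 2 of the 3 GGAC sites lay at its distances. The other C2C12 peaks, at 16914 and 24458 bp, were annotated to coding exons and did not overlap with it. Counted from the other start sites, which the neighbouring genes did not match, the overlap was 93.5 and 89.5 bp. The C2C12 list annotates by 1 transcript for each gene, and neither table says which Wtap transcript gave the reads. Of the 3 genes in both tables, only Rbm15b was counted as having the same class, coding sequence, in both. Rbm15 has the class exon in muscle and coding exon in C2C12. These were counted as different because the muscle class exon does not name the coding sequence.

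**Figure D4:**
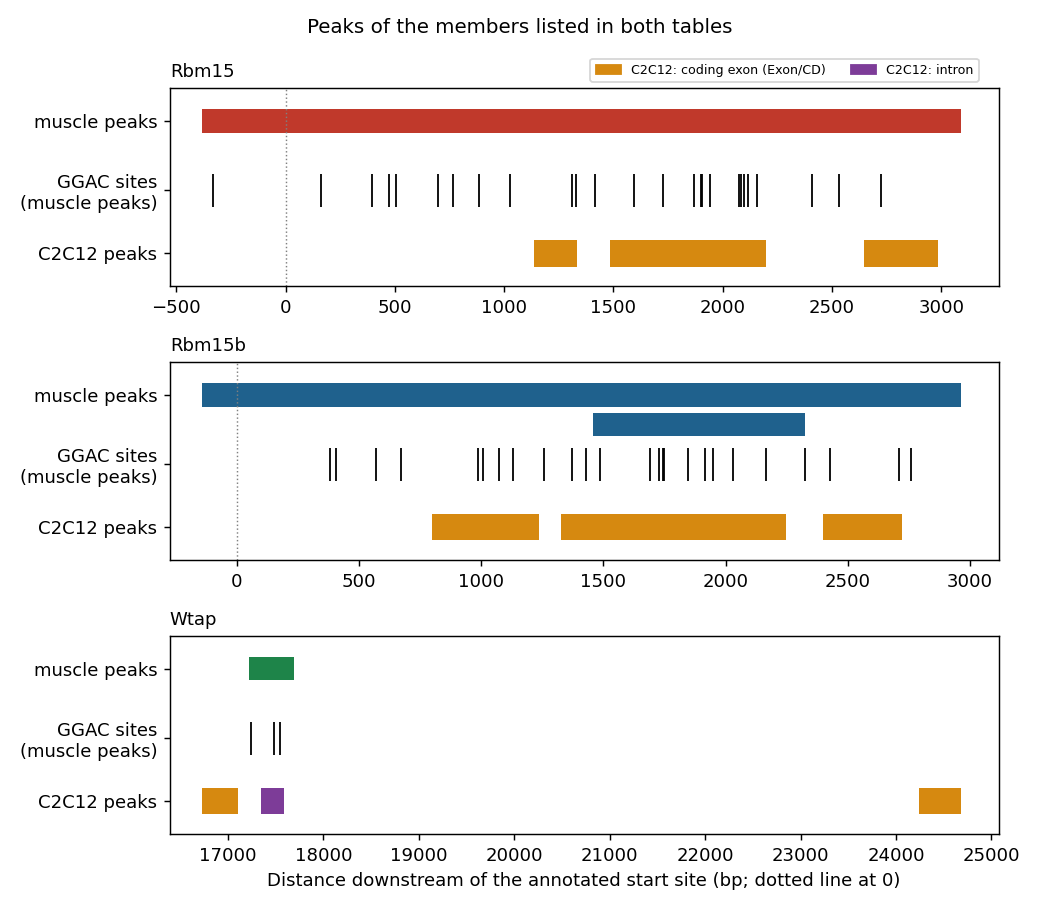
Peaks of Rbm15, Rbm15b and Wtap by distance downstream of the annotated TSS in bp (horizontal axis), with muscle peaks on top (each drawn over its whole span), the GGAC sites of the muscle peaks as ticks, and C2C12 peaks below (orange for coding exons, purple for introns). The C2C12 peaks of Rbm15 and Rbm15b lie inside the muscle peaks, and for Wtap the intron peak of C2C12 lies inside the muscle 3′UTR peak. C2C12 distances are as deposited, without the 74 bp for Rbm15b.

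The gene most like Rbm15 was sought among genes whose strongest muscle peak is in the class exon, with 1 muscle peak and 3 C2C12 peaks, and 5 genes met this. The nearest in fold enrichment were Klhl26 at 460, AI837181 at 455 and Pfn1 at 33.6. They lay at -1.18, -1.19 and -4.95 from Rbm15 on the log2 scale, and all 3 were lower than its value of 1040. Their peaks were also shorter, at 1673, 1529 and 417 bp with 7, 12 and 2 GGAC sites. The Rbm15 peak has 3473 bp and 26 sites. Rbm15 was chosen as the member with the highest fold enrichment, so lower values in the other genes carry little weight.

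Other genes that handle m6A were set beside the writers. The shares of all protein-coding genes were 16.9% in muscle, 17.6% in C2C12 and 7.32% in both. Each list here is small, and its counts were not tested against these shares. Of the 13 reader and eraser genes, 6 were listed in muscle, 7 in C2C12 and 3 in both. Those in both were the demethylase genes Fto and Alkbh5 and the RNA-binding protein gene Hnrnpc, whose strongest muscle peaks had fold enrichments of 8.69, 5.5 and 5.79. Listed in muscle alone were the nuclear reader gene Ythdc1 at 297, above Wtap, and Rbmx at 15.9 and Igf2bp2 at 8.77. The median over the strongest peak of every gene was 19.4. Of the 6, Ythdc1 alone was above it, and 3 of the 3 writers listed in muscle were. The reader and eraser genes had 11 C2C12 peaks in 7 genes, against 16 in 7 writer genes. The difference between these lists was not tested. Of 5 genes for other N6-adenine methyltransferases and their partner, 2 were in muscle and 1 in C2C12. Pcif1, the enzyme for the m6A variant next to the cap, was in both, with a fold enrichment of 10 in muscle. Mettl4 was in muscle alone, at 146 and thus above Wtap. Of 6 genes in a list for the supply of the methyl donor S-adenosylmethionine, which includes the Ahcy-like genes Ahcyl1 and Ahcyl2, 2 were in muscle and 0 in C2C12. These were Mat2a, the METTL16 substrate, with a fold enrichment of 8.1 and 0 GGAC sites, and Ahcyl1 at 6.06.

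For the material, peaks were listed in muscle for 3 of 6 muscle stem cell and myogenic marker genes, 2 of 7 muscle fibre genes, 3 of 6 leukocyte genes, 1 of 3 endothelial genes and 2 of 3 fibroblast genes. In C2C12 the counts were 3, 1, 0, 0 and 2. Of all protein-coding genes, 16.9% were listed in muscle and 17.6% in C2C12. Each list holds few genes, and the counts were not tested against these shares. Under the label muscle stem cell, the leukocyte genes listed in muscle were Ptprc, Itgam and Mrc1. Their strongest peaks had fold enrichments of 3.28, 2.81 and 1.73, against a median of 12.9 over all peaks. Adgre1, Cd68 and Csf1r had 0 peaks. Of the endothelial genes, Cdh5 was listed at 155, and Pecam1 and Kdr had 0 peaks. Among the muscle fibre genes, Ttn had 27 muscle peaks, the strongest at 8.13, and 0 in C2C12. Des had 1 muscle peak, at 2.12, and 3 in C2C12, and the other 5 fibre genes were in neither. Fibroblast genes were also listed in C2C12, a myoblast line, so a listed peak does not show that a cell type was present. Fewer cells of a type cannot be told apart from less RNA per cell. Which cells gave the Rbm15, Rbm15b and Wtap peaks in muscle was not tested.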

How the data were processed

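m6A MeRIP-Seq was analysed from 7 libraries, assigned to groups by the sample titles. The submitters' processing notes name TopHat, MACS2 and mm10, without settings. From these libraries the authors made 1 muscle table and 1 C2C12 list. For each muscle peak, the authors deposited the position, class, GGAC positions, a p-value of the peak and the enrichment in the IP relative to input as a ratio, with 1 value over both genotypes. The authors also deposited a log2 fold and p-values for the genotypes. These hold their own comparison and were not used, except that the FDR column was read to learn how the table was filtered. Columns of single samples left out numbered 0. With 1 library of each kind per genotype and 1 list for both C2C12 IP libraries, no test was made. The only p-value given is the authors' own p-value of the peak.

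Members and lists were chosen with earlier results of these data known. All members were named, along with genes of the other lists present in both tables and genes nearest to the strongest member. Symbols were matched to RefSeq (GRCm38.p6), for muscle through older symbols that name 1 gene (3808 of 3980 matched) and for C2C12 through the transcript (3967 of 3970). Of the 9 members, 7 had a promoter window. Muscle starts were made 1-based, C2C12 lengths count both ends, and overlap needed 1 bp. Mat2a, Ahcyl1, Mettl4, Ythdc1, Rbmx, Igf2bp2, Ttn and the leukocyte and endothelial genes were named after their values were seen. Functions were tested on simulated data. Python 3.11.15, pandas 2.3.3, numpy 2.4.6 and matplotlib 3.10.9 were used.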

Additional observations from a re-analysis of the deposited data

How the results depend on the processing

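Of 17 alternatives, 12 were counted as leaving the value reported unchanged. This means within 1.5 times of it or, for the median fold enrichment of the member peaks, within their spread. Several of the 12 could not have changed the value. The floors on fold enrichment, 2 and the median of 12.9, lie below the weakest member peak, at 57.2. All member peaks held a GGAC site, so taking the strongest peak of each gene could not change that count. The median moved from 426 to 702 and counted as unchanged only by the spread of 57.2 to 1040. The count of 12 therefore says little about how firm the results are. Among the 12, keeping muscle peaks of the coding sequence and UTR classes left 2 members in place of 3. It lost Rbm15, the strongest, whose class is exon. Keeping C2C12 peaks of at least the median length left 4 members listed in place of 7, because the single peaks of Mettl16, Virma and Cbll1 are shorter. Requiring the same annotated class left 1 member in both tables in place of 3. Wtap is annotated differently, and the muscle class exon of Rbm15 was not counted as coding exon. Taking all genes of the annotation as background gave shares of 7.61% in muscle, 7.93% in C2C12 and 3.23% in both, because it counts more genes. Moving the start sites of Rbm15b and Wtap was added after seeing the data. No paired analysis was possible because each genotype has 1 library of each kind and neither table splits its values by library. For the same reason no C2C12 IP library could be left out. Depth is unknown, which limits all absences.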
